A study of Gallus gallus with 19 samples.

Results

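The mitochondrial ribosomal protein genes were followed in neural plate border tissue of chicken embryos in which Nanog, PouV or Klf4 had been knocked down. A gene was a member if its symbol in the authors' table began with MRPL or MRPS followed by a digit. This gave 68 of the 18996 genes tested, 41 of them MRPL genes (named for the large subunit) and 27 MRPS genes (named for the small subunit). All 68 passed the filter on low counts, and the lowest count of any of them in any sample was 107. A further 3 genes carry no symbol but are described as mitochondrial ribosomal proteins L2, L30 and L55. They are not among the 68.

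Mitochondria hold their own ribosome, which makes a small set of hydrophobic subunits of the respiratory chain and ATP synthase from mitochondrial mRNA. Its rRNA is encoded by the mitochondrial genome, whereas all of its proteins are encoded in the nucleus, made in the cytosol and imported. Part of these proteins have counterparts in bacterial ribosomes. The rest were added in mitochondria, and in mammals they surround the RNA core that they partly replace. The proteins of a subunit assemble in fixed proportion around its rRNA.

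Bulk RNA sequencing was performed on the neural plate border of wild type Gallus gallus embryos electroporated at HH4 (gastrula) and collected at HH7/HH8-, the stage at which the neural folds form. One side received a translation blocking morpholino (MO) against Nanog, PouV (the chicken counterpart of Oct4) or Klf4, and the opposite side a control MO, each with empty pCIG vector as carrier, so that the controls were electroporated tissue of the same embryos and not untreated embryos. Knockdown samples numbered 4 for Nanog, 3 for PouV and 4 for Klf4, and the 8 control samples came from the Nanog (4), PouV (2) and Klf4 (2) experiments, each sample being a pool of dissected tissue from several embryos. Each knockdown was compared with all 8 controls. Knockdown was by MO alone, 1 MO per gene, and the tissue was not sorted. In such bulk tissue, fewer cells of a type and less RNA per cell cannot be told apart.

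Total counts ranged from 31215191 to 44726348 per sample. A translation blocking MO does not remove its target mRNA, so the target transcripts do not check the labels. The controls averaged 7.99 ± 3.51 CPM (counts scaled to a fixed library size; SD, n = 8) for NANOG, where Nanog MO averaged 6.39 CPM. They averaged 869 ± 141 CPM for Pou5f3, the PouV gene, where PouV MO averaged 1224 CPM. The samples are labelled midbrain and neural crest. Markers of neighbouring tissues were also present: over the controls the summed CPM ranged from 257 to 593 for 9 genes of the neural plate border and early crest, from 239 to 955 for 5 neural plate genes, from 441 to 836 for 6 non-neural ectoderm genes, from 232 to 413 for 8 mesoderm genes and from 203 to 1214 for 9 endoderm genes. The library PouV MO 3 stood apart from the other 18 for the genes described here, and values that rest on it are given with and without it.

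Across the 19 samples the 68 genes together took 0.309% to 0.466% of the CPM. Their mean CPM ranged from 3.57 for MRPS14 (ENSGALG00000030028), whose bacterial counterpart lies in the head of the small subunit, to 143 for MRPL44 (ENSGALG00000003067), a large subunit protein with an RNase III-like fold, and the median was 46.3. MRPL9 (ENSGALG00000042941) and MRPL3 (ENSGALG00000040873), both with bacterial counterparts, followed MRPL44, and MRPL20 (ENSGALG00000001542) and MRPS36 (ENSGALG00000014789) stood just above MRPS14. CPM is not corrected for transcript length, so this order describes counts and not transcripts per cell.

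MRPL44 had 120, 143 and 161 CPM as the lowest, median and highest control value. The Nanog MO samples had 141, 127, 137 and 130 CPM, the PouV MO samples (1, 3 and 4) 140, 186 and 146 CPM, and the Klf4 MO samples 148, 159, 136 and 137 CPM. Only PouV MO 3 lay outside the control range. At the other end MRPS14 had 2.80, 3.41 and 4.22 CPM in the controls, 3.30, 4.16, 4.64 and 3.29 in Nanog MO, 3.56, 5.44 and 3.03 in PouV MO, and 2.90, 3.24, 3.29 and 2.87 in Klf4 MO. Nanog MO 3 and PouV MO 3 exceeded every control for this gene. MRPL20 had 12.4, 15.0 and 16.6 CPM in the controls, 13.9, 13.8, 17.9 and 11.6 in Nanog MO, 13.9, 22.3 and 14.8 in PouV MO, and 12.4, 15.1, 12.4 and 11.8 in Klf4 MO. For MRPL20 too, PouV MO 3 was the highest of the 19 samples.

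Summed over the 41 MRPL genes, the controls ranged from 1906 to 2414 CPM (mean 2193 ± 190, SD, n = 8). The Nanog MO samples had 2180, 2134, 2416 and 2020 CPM, and the Klf4 MO samples 2113, 2271, 1906 and 2046 CPM. PouV MO 1 and PouV MO 4 had 2284 and 2150 CPM, and PouV MO 3 had 3265 CPM. The 27 MRPS genes gave the same picture, with 1118 to 1380 CPM in the controls, 1171 to 1376 in Nanog MO, 1105 to 1322 in Klf4 MO, and 1297, 1706 and 1212 in PouV MO 1, 3 and 4. In PouV MO 3 the MRPS sum was 0.523 of the MRPL sum, against 0.554 to 0.590 in the other 18 samples.

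**Figure D1:**
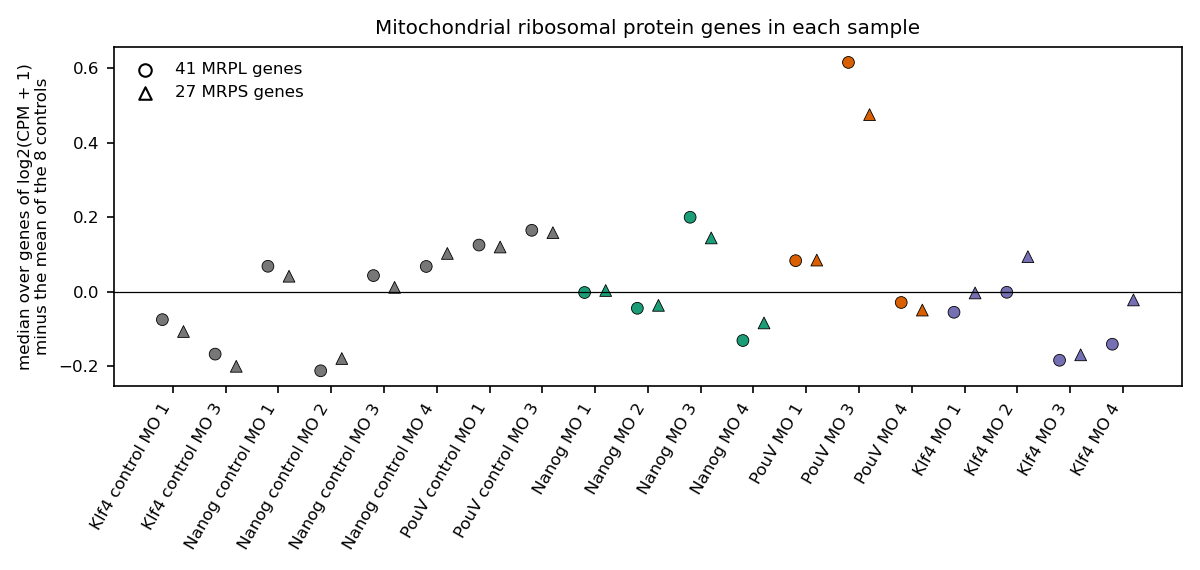
Median over the 41 MRPL genes (circles) and the 27 MRPS genes (triangles) of log2(CPM + 1) minus the mean of the 8 controls, for each of the 19 samples, coloured by group (grey control MO, green Nanog MO, orange PouV MO, purple Klf4 MO). PouV MO 3 stands at 0.62 for MRPL and 0.48 for MRPS, and the other 18 samples lie between -0.21 and 0.20.

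Relative to the control mean on the log2(CPM + 1) scale, 66 of the 68 genes were higher in PouV MO 3, 45 in PouV MO 1 and 26 in PouV MO 4. The control samples themselves ranged from 5 genes above the mean in Nanog control 2 to 61 in PouV control 1, so that the genes moved together between control samples as well. The Nanog MO samples had 33, 22, 58 and 15 genes above the control mean, and the Klf4 MO samples 27, 37, 11 and 23. The median over all genes of at least 1 CPM stayed between -0.023 and 0.012 in every sample.

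PouV MO 3 held the highest value of all 19 samples for 55 of the 68 genes (34 MRPL and 21 MRPS), against 18.3% of all genes tested. The 13 exceptions were MRPL3, MRPL4, MRPL17, MRPL22, MRPL37, MRPL39, MRPL50, MRPS6, MRPS7, MRPS27, MRPS30, MRPS35 and MRPS36. The largest differences of PouV MO 3 from the control mean on the log2(CPM + 1) scale were 1.04 for MRPS21, 0.99 for MRPL16, 0.98 for MRPL43 and 0.95 for MRPL12. MRPS30 and MRPL3 were below the control mean in this library, by -0.28 and -0.083. The lowest values were spread over more samples: Nanog control 2 held the lowest value for 19 genes and Klf4 MO 3 for 14.

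**Figure D2:**
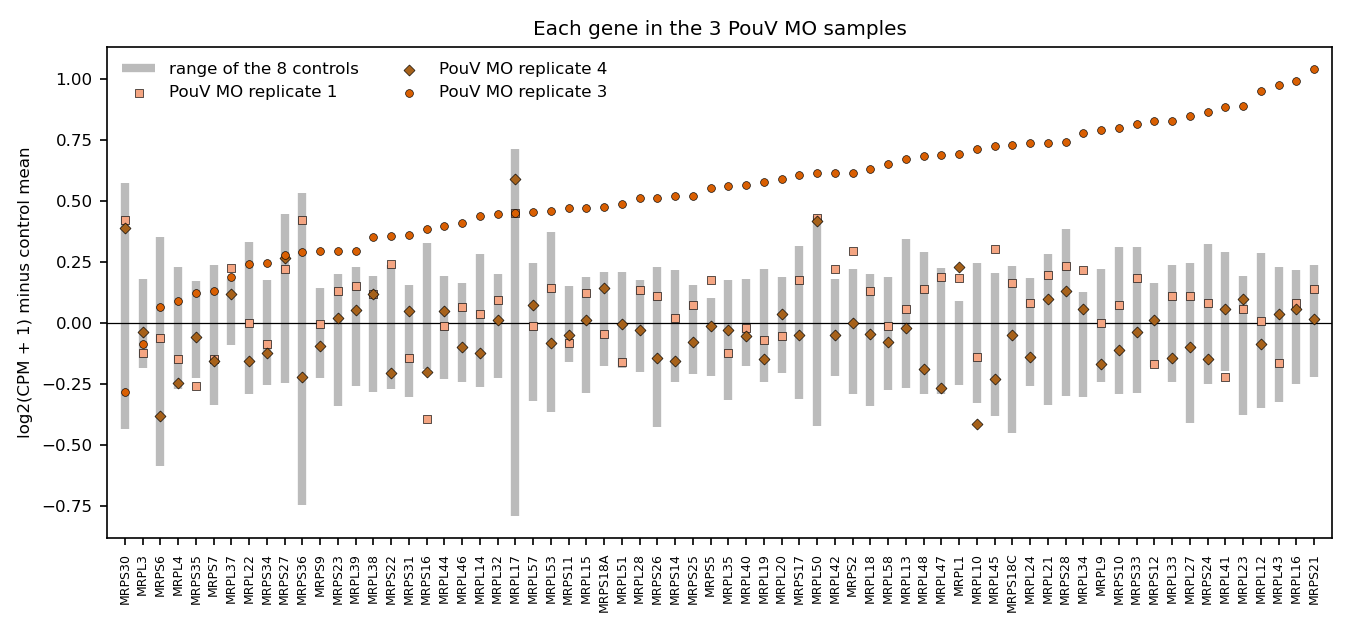
Each of the 68 genes on the x axis, ordered by its value in PouV MO replicate 3, with log2(CPM + 1) minus the control mean on the y axis. Grey bars span the 8 controls, and PouV MO replicates 1 (squares), 4 (diamonds) and 3 (circles) are shown apart. Replicate 3 runs from -0.28 for MRPS30 to 1.04 for MRPS21, while replicates 1 and 4 fall within the grey bars for most genes.

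PouV knockdown against the controls was the comparison in which most of these genes were higher, and their excess was smaller without PouV MO 3, 1 of its 3 libraries. In edgeR's quasi-likelihood test with Benjamini-Hochberg adjustment over all genes, none of the 68 passed an adjusted p of 0.05, where 0.663% of all genes did (126 genes). The fitted log2 fold change, which is adjusted for 1 factor of unwanted variation, was above 0 for 62 of the 68 genes (39 MRPL, 23 MRPS), against 9495 of all 18996 genes. The median log2 fold change was 0.26 for MRPL and 0.21 for MRPS genes, and -0.00011 over all genes. At an unadjusted p under 0.05, 34 genes were higher (22 MRPL and 12 MRPS) and none lower, where 9.39% of all genes were higher and 6.32% lower. Their log2 fold changes ranged from 0.18 to 0.48, and their adjusted p from 0.108 to 0.317. The standard error of a log2 fold change in this comparison had a median of 0.116 over the 68 genes. Without the factor of unwanted variation 62 genes were above 0, and 12 were higher at that unadjusted level (6.83% of all genes). With the DESeq2 Wald test, MRPL1 alone passed (adjusted p 0.0301), where 2.67% of all genes did.

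Without PouV MO 3 the excess in this comparison was smaller. Again none of the 68 genes passed (background 0.0842%, 16 genes). The median log2 fold change was 0.067 for MRPL and 0.067 for MRPS, with 49 genes above 0 (32 MRPL, 17 MRPS), against a median of -0.0016 and 9446 genes above 0 over all 18996. At an unadjusted p under 0.05 no member was higher (3.45% of all genes) and 1, MRPS16, was lower (3.16% of all genes). MRPS16 had 26.2, 29.7 and 37.9 CPM in the controls and 22.6 and 25.9 CPM in PouV MO 1 and 4, and it was the only member with both below every control (2.06% of all genes), as MRPL1 was the only one with both above (2.25% of all genes). Leaving out another PouV MO library raised the count of genes passing. Without PouV MO 4, 5 genes passed in edgeR (MRPS5, MRPL1, MRPS2, MRPL45 and MRPL27), where 2.63% of all genes did. Without PouV MO 1, 1 gene passed in edgeR (MRPL23, adjusted p 0.0458), where 0.9% of all genes did. In those fits PouV MO 3 is 1 of 2 PouV MO samples.

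**Figure D3:**
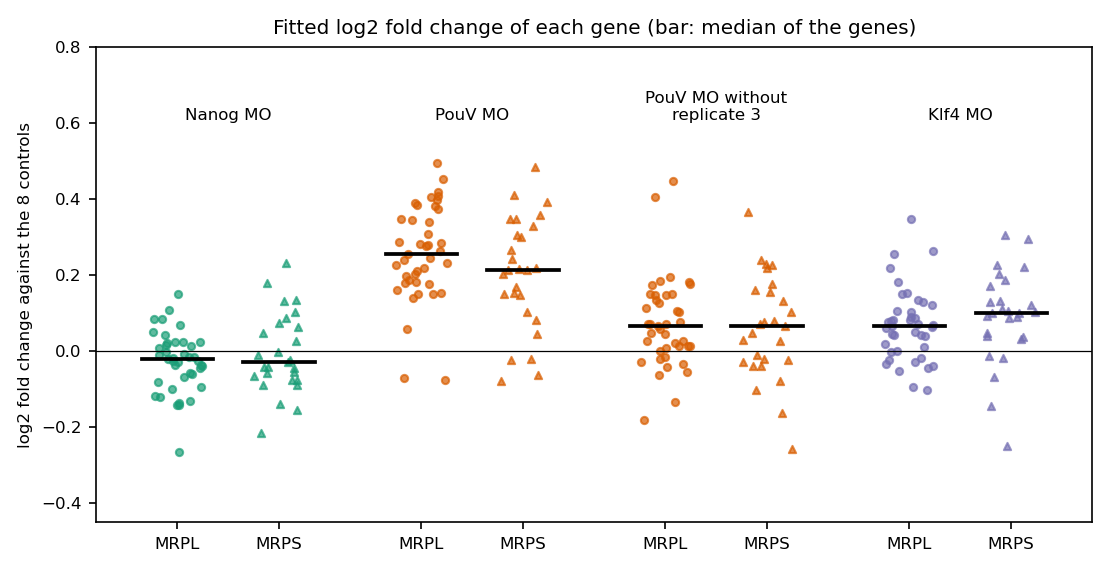
Fitted log2 fold change against the 8 controls (y axis) for each MRPL gene (circles) and each MRPS gene (triangles) in Nanog MO, PouV MO, PouV MO without replicate 3, and Klf4 MO. Horizontal bars are medians. The PouV medians of 0.26 and 0.21 drop to 0.067 and 0.067 without replicate 3, and no gene passed an adjusted p of 0.05 in any of the 4 comparisons.

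MRPL1 (ENSGALG00000010324), the counterpart of the protein of the bacterial L1 stalk at the tRNA exit side, had the smallest adjusted p of the 68 after PouV knockdown. It had 23.4, 29.1 and 30.0 CPM as lowest, median and highest control value, and 32.2, 46.2 and 33.2 CPM in PouV MO 1, 3 and 4. It was the only one of the 68 whose PouV MO samples all lay above all controls, where 1.06% of all genes did, and none had them all below (0.848% of all genes). The fitted log2 fold change of MRPL1 was 0.40 (SE 0.110, adjusted p 0.108, edgeR), and 0.20 (SE 0.102, adjusted p 0.789) without PouV MO 3. The Nanog MO samples had 30.2, 32.3, 28.1 and 34.7 CPM for MRPL1, 3 of them above every control, with a log2 fold change of 0.15 (SE 0.101, adjusted p 0.956), and the Klf4 MO samples had 28.8, 28.1, 27.9 and 25.4 CPM.

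The 3 largest log2 fold changes were those of MRPL50 (ENSGALG00000015543), a large subunit protein particular to mitochondria, and of MRPS21 (ENSGALG00000052471) and MRPL16 (ENSGALG00000029419), whose products have bacterial counterparts. MRPS21 had 42.9, 49.7 and 59.3 CPM in the controls and 55.3, 104 and 50.7 CPM in PouV MO 1, 3 and 4. PouV MO 1 and 4 lay inside the control range, and the log2 fold change of 0.48 (SE 0.159, adjusted p 0.161, edgeR) became 0.13 without PouV MO 3. MRPL16 had 29.5, 35.3 and 41.2 CPM in the controls and 37.4, 71.1 and 36.7 CPM in PouV MO. Its log2 fold change of 0.45 (SE 0.154, adjusted p 0.173, edgeR) became 0.077 without PouV MO 3. MRPL50 behaved differently: it had 15.9, 22.1 and 29.7 CPM in the controls and 29.5, 33.6 and 29.2 CPM in PouV MO, close to each other and near the top of the controls. Its log2 fold change of 0.49 (SE 0.245, adjusted p 0.337, edgeR) was 0.45 without PouV MO 3 (adjusted p 0.878).

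MRPL12 and MRPL10 are the mitochondrial counterparts of the bacterial L7/L12 stalk and its base, which recruits the translation factors, and MRPL12 also binds the mitochondrial RNA polymerase in mammals. MRPL12 had 78.3, 104 and 122 CPM in the controls and 101, 194 and 94.0 CPM in PouV MO 1, 3 and 4. MRPL10 had 24.2, 32.2 and 36.4 CPM in the controls and 27.7, 50.8 and 22.7 CPM in PouV MO. For both genes PouV MO 3 was the highest of all samples, and for MRPL10 PouV MO 4 was below every control. MRPS12 (ENSGALG00000038667), the counterpart of bacterial S12 in the decoding centre, had 38.9, 43.6 and 49.6 CPM in the controls and 39.2, 79.2 and 44.7 CPM in PouV MO. Its log2 fold change of 0.30 (SE 0.145, adjusted p 0.317, edgeR) was -0.029 without PouV MO 3.

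The genes with the lowest PouV fold changes were MRPS6, MRPL3 and MRPL4. MRPS6 (ENSGALG00000027579), a small subunit protein with a bacterial counterpart, had 33.5, 51.2 and 64.9 CPM in the controls and 48.6, 53.1 and 38.7 CPM in PouV MO, all within the control range (log2 fold change -0.077, SE 0.103, adjusted p 0.753, edgeR). MRPL3 had 104, 117 and 134 CPM in the controls and 108, 111 and 115 CPM in PouV MO (-0.075, SE 0.0780, adjusted p 0.669, edgeR). MRPL4 (ENSGALG00000050204) had 49.8, 62.0 and 70.9 CPM in the controls and 54.4, 64.2 and 50.7 CPM in PouV MO (-0.069, SE 0.0826, adjusted p 0.716, edgeR). These 3 genes stayed within the control range in PouV MO 3 as well.

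After Nanog knockdown the 68 genes were close to the controls in the main fit. None passed the adjusted threshold, where 0.258% of all genes did (49 genes). The DESeq2 Wald test called none either, where 0.605% of all genes passed. The log2 fold change was above 0 for 24 of 68 genes (14 MRPL, 10 MRPS), with medians of -0.020 for MRPL and -0.029 for MRPS against 0.0037 over all genes, and the median standard error was 0.107. At an unadjusted p under 0.05 no member was higher (3.89% of all genes) and 1 was lower (1.93% of all genes). That gene was MRPL51 (ENSGALG00000014435), a large subunit protein particular to mitochondria. It had 57.4, 65.1 and 75.6 CPM in the controls and 55.6, 57.2, 58.8 and 47.8 CPM in Nanog MO, with 3 of the 4 samples below every control. Its log2 fold change was -0.26 (SE 0.102, adjusted p 0.678, edgeR). For no member did the Nanog MO samples lie wholly above or below the controls, where 0.479% and 0.153% of all genes did. The direction of the medians depended on the fit. With the replicate number as a block and the factor of unwanted variation kept, they were 0.12 for MRPL and 0.14 for MRPS.

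MRPS12 and MRPS2 were the next lowest after Nanog knockdown. MRPS12 had 37.7, 40.2, 45.2 and 32.3 CPM in Nanog MO (log2 fold change -0.22, SE 0.135, adjusted p 0.947, edgeR). MRPS2 (ENSGALG00000026303), whose bacterial counterpart sits between head and body of the small subunit, had 29.3, 36.2 and 42.2 CPM in the controls and 33.4, 31.1, 38.2 and 29.8 CPM in Nanog MO (-0.15, SE 0.101, adjusted p 0.948, edgeR). In PouV MO 1, 3 and 4 MRPS2 had 44.4, 55.8 and 36.1 CPM. For MRPS12, Nanog MO 1 and 4 lay below every control, and all Nanog MO values of MRPS2 lay in the control range.

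After Klf4 knockdown none of the 68 genes passed, where 0.0158% of all genes did (3 genes), and DESeq2 also called none (0.411% of all genes). The log2 fold change was above 0 for 53 of 68 genes (31 MRPL, 22 MRPS), with medians of 0.067 and 0.10 against -0.0010 over all genes, and the median standard error was 0.124. This direction depended on the adjustment for unwanted variation. The factor itself differed between experiments. It ran from 0.29 to 1.93 in the Klf4 experiment, from -1.46 to 0.034 in the Nanog experiment and from -0.98 to 0.66 in the PouV experiment. Without that factor 21 of 68 genes were above 0, with medians of -0.083 and -0.051. The deposited values themselves, which are TMM-scaled and not adjusted for that factor, lay at or below the control mean for most genes in 3 of the 4 Klf4 MO samples. At an unadjusted p under 0.05, 1 gene was higher (MRPL39, 2.77% of all genes) and 1 lower (MRPS22, 3.31% of all genes).

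MRPS22 (ENSGALG00000005367), a small subunit protein particular to mitochondria, was the only member whose Klf4 MO samples all lay below all controls, where 1.37% of all genes did; none lay all above (1.33% of all genes). It had 39.3, 47.6 and 56.2 CPM in the controls and 37.0, 37.4, 36.8 and 33.4 CPM in Klf4 MO. The 2 controls of the Klf4 experiment, at 43.3 and 39.3 CPM, were the lowest of the 8. For MRPS22 the log2 fold change was -0.25 (SE 0.102, adjusted p 0.732, edgeR). Without the factor of unwanted variation it was -0.40 with an adjusted p of 0.0494 (2.32% of all genes passed there), and without Klf4 control 3 it was -0.37 with an adjusted p of 0.0489 (4.25% of all genes). In Nanog MO it had 47.0, 50.2, 48.9 and 46.0 CPM, inside the control range.

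The other genes with low Klf4 fold changes had values spread over the control range or slightly under it. MRPS6 had 44.3, 38.1, 31.1 and 33.2 CPM in Klf4 MO (log2 fold change -0.14, SE 0.109, adjusted p 0.940, edgeR). The Klf4 controls had 44.7 and 33.5 CPM for MRPS6, against 43.4 to 64.9 CPM in the other 6 controls. MRPL46 (ENSGALG00000006782), a large subunit protein particular to mitochondria, had 42.1, 52.3 and 56.0 CPM in the controls and 48.9, 45.5, 41.1 and 39.5 CPM in Klf4 MO (-0.10, SE 0.107, adjusted p 0.955, edgeR).

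The genes with the largest positive Klf4 fold changes, MRPL17, MRPS36 and MRPS27, were among the most variable of the 68. The highest control value exceeded the lowest by 1.43-fold at the median of the 68 genes, and by 1.5-fold at the median of the 9549 genes with a mean of at least 10 CPM. It did so by 2.88-fold for MRPL17 (ENSGALG00000002605), 2.57-fold for MRPS36, 2.03-fold for MRPS30, 1.94-fold for MRPS6 and 1.87-fold for MRPL50. MRPL17 is a large subunit protein with a bacterial counterpart, MRPS30 sits in the large subunit in mammals in spite of its name, and MRPS36 is a component of the ketoglutarate dehydrogenase complex in mammals and not of the ribosome. MRPS18A also sits in the large subunit in mammals. All of these were counted here by their names.

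MRPL17 had 41.4, 77.3 and 119 CPM in the controls and 70.0, 162, 70.8 and 136 CPM in Klf4 MO 1 to 4. The Klf4 MO samples thus fell apart, with replicates 2 and 4 above every control and replicates 1 and 3 near the control median. The log2 fold change of MRPL17, 0.35, had a standard error of 0.305 (adjusted p 0.949, edgeR). In PouV MO it had 99.0, 98.9 and 109 CPM, and in Nanog MO 79.7, 97.7, 48.8 and 59.8 CPM. MRPS36 had 9.68, 18.2 and 24.9 CPM in the controls, 14.3, 24.7, 9.96 and 18.5 CPM in Klf4 MO, 19.3, 24.7, 21.5 and 17.7 CPM in Nanog MO and 23.0, 20.9 and 14.3 CPM in PouV MO. Its log2 fold changes were 0.31 in Klf4 (SE 0.246, adjusted p 0.944, edgeR) and 0.23 in Nanog (SE 0.202, adjusted p 0.997, edgeR), and the Klf4 value was -0.051 without the factor of unwanted variation.

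MRPS27 (ENSGALG00000015002), a pentatricopeptide repeat protein of the small subunit, is on the study's list of genes changed in all knockdowns. That list was chosen with DESeq2 on these samples and others. The study counts more PouV and control samples than the 3 and 8 used here. MRPS27 had 29.8, 34.0 and 48.7 CPM in the controls. The Nanog MO samples had 38.4, 52.0, 35.9 and 36.7 CPM, the PouV MO samples 41.5, 43.2 and 42.9 CPM, and the Klf4 MO samples 32.2, 54.7, 31.2 and 58.9 CPM. Values overlapped with the controls in each knockdown. Its log2 fold change was 0.18 in Nanog (SE 0.174, adjusted p 0.997), 0.24 in PouV (SE 0.192, adjusted p 0.559) and 0.30 in Klf4 (SE 0.212, adjusted p 0.934; all edgeR). The 3 comparisons share the controls. MRPL50 and MRPS30 showed the same separation within Klf4 MO, with 16.5, 36.1, 14.3 and 31.1 CPM for MRPL50 and 49.7, 97.5, 54.9 and 96.4 CPM for MRPS30.

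The knockdowns were also compared with each other in the same fit. Of all genes, 47% were above 0 in PouV MO against Nanog MO and 49.7% in PouV MO against Klf4 MO. These shares were 49.9% and 49.3% without PouV MO 3. In Klf4 MO against Nanog MO the share was 48.8%. PouV MO against Nanog MO had 62 of 68 genes above 0 with no member passing (0.174% of all genes), and 30 genes at an unadjusted p under 0.05, all higher (7.5% of all genes higher, 5.49% lower). The smallest adjusted p was that of MRPS2, with a log2 difference of 0.50 (SE 0.12, adjusted p 0.104, edgeR; DESeq2 adjusted p 0.0160, where 1.67% of all genes passed in DESeq2). Without PouV MO 3, 50 genes were above 0, none passed (0.0316% of all genes), and 4 (MRPL34, MRPL37, MRPL39 and MRPS2) were higher at an unadjusted p under 0.05 (4.05% of all genes higher, 4.69% lower). PouV MO against Klf4 MO had 57 genes above 0 and no member passing (0.0948% of all genes), and 4 genes (MRPL1, MRPL23, MRPL27 and MRPS22) higher at an unadjusted p under 0.05 (5.58% of all genes higher, 3.72% lower). Without PouV MO 3, 38 genes were above 0, none passed (0.0895% of all genes), MRPL1 and MRPS22 were higher at that unadjusted level (4.55% of all genes) and MRPS35 lower (3.9% of all genes). In the fit of all samples MRPS22 came first in this contrast, with 0.42 (SE 0.118, adjusted p 0.204, edgeR). Klf4 MO against Nanog MO had 54 genes above 0, no member passing (0.0263% of all genes), and 3 genes (MRPL39, MRPL51 and MRPS2) higher at an unadjusted p under 0.05 (2.95% of all genes higher, 4.52% lower). MRPL51 differed there by 0.41 (SE 0.135, adjusted p 0.415, edgeR). In DESeq2 MRPS2 was the only member called in a comparison of knockdowns, in PouV MO against Nanog MO.

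Control and knockdown samples of the same experiment that carry the same replicate number formed 8 pairs. No source used here states that a number marks a shared pool of embryos, so the pairs are given as values with no test. On the log2(CPM + 1) scale the median difference, knockdown minus control, was -0.071 for MRPL and -0.024 for MRPS in Nanog pair 1, 0.18 and 0.18 in pair 2, 0.15 and 0.16 in pair 3, and -0.16 and -0.18 in pair 4. In pairs 2 and 3, 60 of 68 genes were higher in the knockdown sample, and in pairs 1 and 4, 17 and 16. In PouV pair 1 the medians were -0.041 and -0.095, with 20 genes higher, and in PouV pair 3 they were 0.43 and 0.36, with 62 genes higher. In Klf4 pair 1 they were 0.018 and 0.062 with 42 genes higher, and in Klf4 pair 3 -0.064 and -0.034 with 17 genes higher. Of all genes with a mean of at least 1 CPM, 46.2% to 52.4% were higher in the knockdown sample over the 8 pairs. The controls of the PouV experiment had the highest summed MRPL values of the 8 controls, 2414 and 2383 CPM. Against the controls of their own experiment alone, and without the factor of unwanted variation, the PouV medians were 0.084 for MRPL and 0.052 for MRPS. In that fit 53 of 68 genes were above 0, and 0 of all 18996 genes passed.

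**Figure D4:**
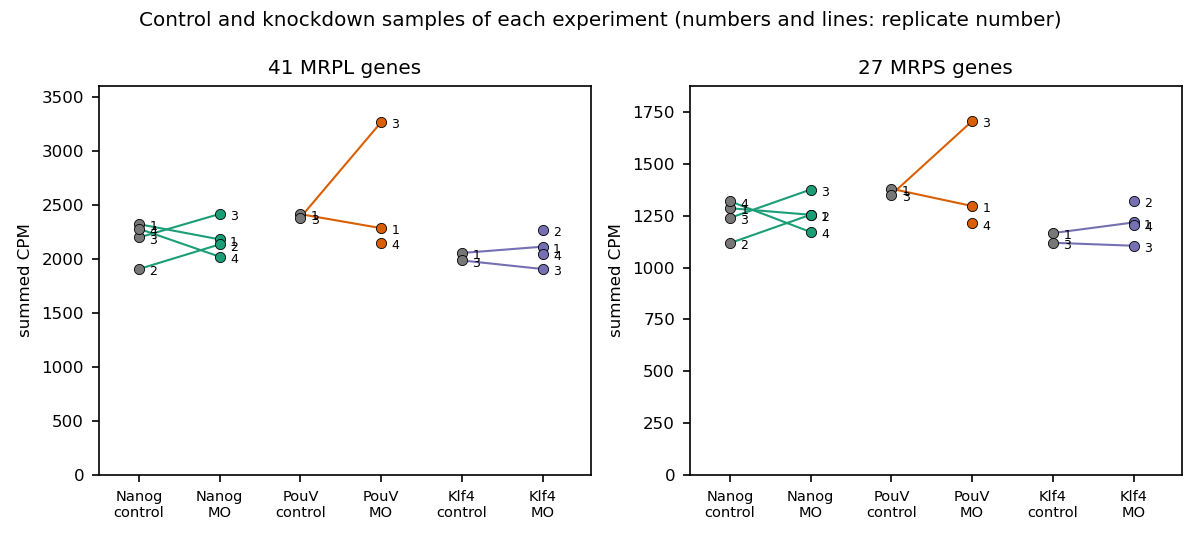
Summed CPM (y axis) of the 41 MRPL genes (left) and the 27 MRPS genes (right) in control and knockdown samples of each experiment, with numbers giving the replicate and lines joining samples of the same number. In the PouV experiment the MRPL sum goes from 2383 to 3265 in pair 3 and from 2414 to 2284 in pair 1, and the Nanog pairs go in both directions.

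Members with and without bacterial counterparts were then separated, a grouping made after the values were known. After PouV knockdown the median log2 fold change was 0.28 for the 25 MRPL genes with a bacterial counterpart and 0.22 for the 16 particular to mitochondria. It was 0.28 for 16 MRPS genes with a bacterial counterpart and 0.16 for the 10 particular to mitochondria, MRPS36 being in neither class. In all 16 MRPL genes particular to mitochondria and in 23 of the 25 others the fold change was above 0. Without PouV MO 3 the 4 medians lay between 0.037 and 0.074. After Nanog knockdown they lay between -0.056 and -0.0056 and after Klf4 knockdown between 0.064 and 0.10. The differences between the classes were not tested.

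Other mitoribosome subunits with names of their own were DAP3, PTCD3, CHCHD1 and AURKAIP1, 4 of 6 listed. After PouV knockdown 3 of the 4 were above 0 with a median of 0.14. CHCHD1 stood at 0.34 (SE 0.110, adjusted p 0.158, edgeR), whereas PTCD3, an rRNA-binding protein of the small subunit, was at -0.24 (SE 0.0998, adjusted p 0.257, edgeR). Their median without PouV MO 3 was -0.00091, with CHCHD1 at 0.13 and PTCD3 at -0.20. The 3 genes known by description only, of mitochondrial ribosomal proteins L2, L30 and L55, were all above 0, at 0.51, 0.32 and 0.23, in the order of IDs ENSGALG00000008597, ENSGALG00000016760 and ENSGALG00000038820. Of these 3, 2 were above 0 without PouV MO 3, and their median went from 0.32 to 0.11. None of these 7 genes passed.

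Factors that build or use the mitoribosome were looked at next. Of 28 listed genes of mitoribosome assembly and rRNA modification 22 were tested. After PouV knockdown 19 of them were above 0 (median 0.18), with 9 higher at an unadjusted p under 0.05 (9.39% of all genes). Without PouV MO 3, 18 were above 0 (median 0.12), with 2 higher at that level, MRM1 and RCC1L (3.45% of all genes). The gene with the symbol MRM1, an rRNA methyltransferase name, is described in the authors' table as dehydrogenase/reductase 11, so its identity is uncertain. It stood at 0.42 (SE 0.117, adjusted p 0.108, edgeR), and at 0.28 without PouV MO 3. C1QBP, the most abundant of the list, stood at 0.27 (SE 0.0864, adjusted p 0.151, edgeR), and at 0.14 without PouV MO 3. None of the 22 passed. The 11 of 19 mitochondrial translation factors tested had a median of 0.071 (0.041 without PouV MO 3), and the initiation factor MTIF2 was at -0.26 (SE 0.0859, adjusted p 0.166, edgeR) and at -0.36 without PouV MO 3.

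NARS2, the mitochondrial asparaginyl-tRNA synthetase, was the only gene of these mitochondrial lists that passed in a knockdown. It averaged 26.3 ± 2.48 CPM (SD, n = 3) in PouV MO against 37.8 ± 4.33 CPM (n = 8) in the controls and fell by 0.49 on the log2 scale (SE 0.0858, adjusted p 0.00834, edgeR). Without PouV MO 3 the log2 fold change was still -0.49, with an adjusted p of 0.0855, so the call was lost with that library although the value was not. The other 12 mitochondrial aminoacyl-tRNA synthetases tested did not pass, and the 13 together had a median of 0.036 (0.020 without PouV MO 3). The 9 of 12 genes of mitochondrial DNA transcription and maintenance had a median of 0.093 and, without PouV MO 3, of -0.022. TFAM, which packages the mitochondrial genome and starts its transcription, was at 0.20 (SE 0.0983, adjusted p 0.326, edgeR), and at 0.062 without PouV MO 3. The 7 of 10 listed regulators of mitochondrial biogenesis had 1 gene above 0 and a median of -0.19, and without PouV MO 3 they had 2 genes above 0 and a median of -0.074.

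Taken as a sum, the genes that the mitoribosome translates stayed within the control range in PouV MO 3. The 13 mitochondrially encoded genes summed to 61487 CPM in PouV MO 3, within the control range of 40930 to 65392 CPM, and to 59035 and 43822 CPM in PouV MO 1 and 4. After PouV knockdown 10 of the 13 were above 0 with a median of 0.071 (single genes from -0.19 to 0.33). None passed, and without PouV MO 3 the median was 0.036. Ribosomal protein genes of the cytosol and proteasome genes were above it. The 64 cytosolic ribosomal protein genes summed to 72531 CPM in PouV MO 3, against 34169 to 45899 CPM in the controls and 40586 and 40400 CPM in PouV MO 1 and 4. All 64 were above 0 after PouV knockdown (median 0.39, none passing), and 59 without PouV MO 3 (median 0.056). The 31 proteasome subunit genes summed to 9787 CPM in PouV MO 3 against 5021 to 6253 CPM in the controls. There 29 of 31 were above 0 with a median of 0.35, and 10 passed, where 0.663% of all genes did. Without PouV MO 3 the median was 0.17 and none passed, with 16 higher at an unadjusted p under 0.05, where 3.45% of all genes were.

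**Figure D5:**
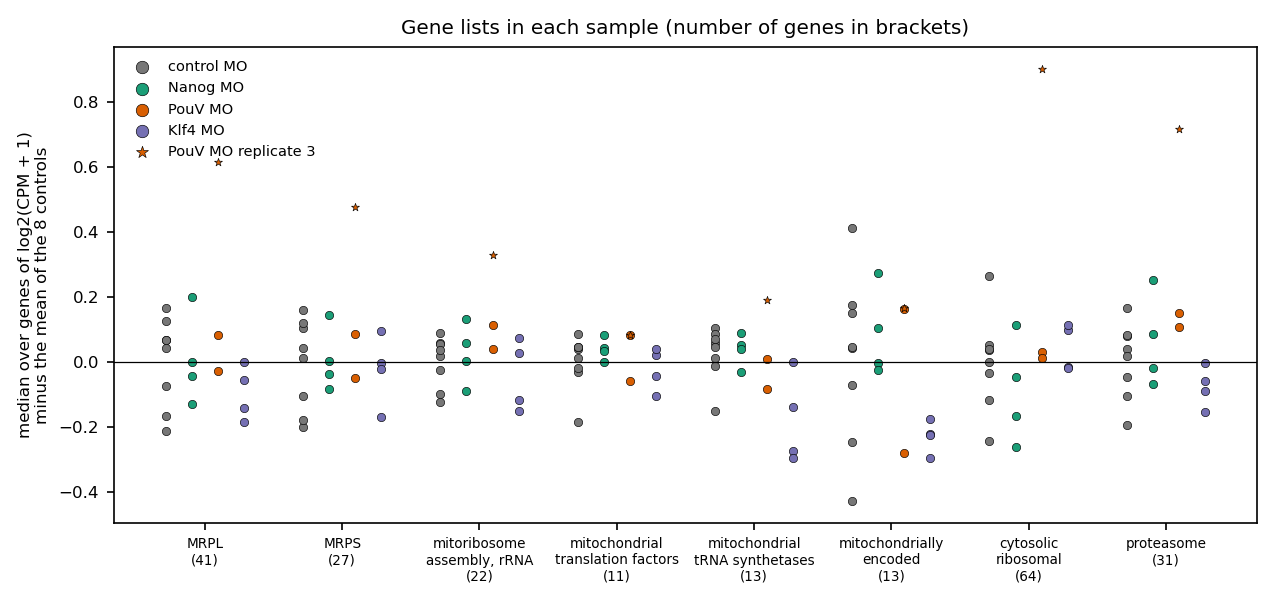
Median over the genes of each list of log2(CPM + 1) minus the mean of the 8 controls (y axis), 1 point per sample, with the number of genes of each list in brackets. PouV MO replicate 3 (star) is at 0.62 for MRPL, 0.48 for MRPS, 0.90 for cytosolic ribosomal proteins and 0.72 for the proteasome, and lies inside the controls for mitochondrially encoded genes.

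Tissue markers also differed between PouV MO libraries. The 6 non-neural ectoderm markers summed to 1407 CPM in PouV MO 3, above the controls (441 to 836 CPM), and to 841 and 808 CPM in PouV MO 1 and 4. EPCAM, 1 of the 6, passed in PouV MO (0.78, SE 0.124, adjusted p 0.00451, edgeR) and in Nanog MO (0.57, SE 0.115, adjusted p 0.0346, edgeR). Its PouV log2 fold change without PouV MO 3 was 0.65 with an adjusted p of 0.112 (edgeR), so that call was lost. All 6 markers were above 0 in PouV MO (median 0.41), and 3 of the 6 were without PouV MO 3 (median 0.11). The 9 endoderm markers summed to 831 CPM in PouV MO 3, 486 in PouV MO 1 and 867 in PouV MO 4, within the control range, and the 8 mesoderm markers to 344, 349 and 347 CPM in PouV MO 3, 1 and 4, also within it. By fold change, 7 of the 8 mesoderm markers were above 0 in PouV MO (median 0.75), and 5 were without PouV MO 3 (median 1.03). None of the 8 passed in either fit. Their median on the log2(CPM + 1) scale was 1.03 in PouV MO 1, against 0.92 in the highest control. The 5 neural plate markers summed to 679, 652 and 280 CPM in PouV MO 3, 1 and 4, and the 9 neural plate border and early crest markers to 577, 397 and 364 CPM, all within the control ranges. In Klf4 MO the 5 neural plate markers summed to 189 to 326 CPM against 239 to 955 CPM in the controls, the non-neural ectoderm markers to 879 to 992 CPM, above every control, and the endoderm markers to 909 to 1514 CPM against 203 to 1214 CPM in the controls. Klf4 controls 1 and 3 had 472 and 239 CPM for the neural plate markers, the lowest of the controls. They had 824 and 1214 CPM for the endoderm markers, and 757 and 710 CPM for the non-neural ectoderm markers. The 6 non-neural ectoderm markers did not move together in Klf4 MO. Their log2 fold changes ran from -1.12 to 0.58, with 4 above 0 and 2 below. The part of tissue makeup in the values of the mitoribosome genes was not tested.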

How the data were processed

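The authors aligned reads of 19 chicken libraries with STAR (2.7.2a, build GRCg6a, per the submitters' processing notes) and deposited raw counts for 24356 genes, filtered counts for the 18996 genes that exceeded 5 reads somewhere, and a table of TMM-scaled signal values, in CPM, which matched CPM recomputed here and supplied the gene names (12495 genes named). Whether counting used strand is not given in the sources used here, so overlapping genes could share reads. Libraries were made with a protocol for very small amounts of RNA.

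Filtered counts of all samples were TMM-normalized and fitted with edgeR (version 4.0.16, under R 4.3.3) to 4 groups plus 1 RUVs factor (controls as the replicate set, 1000 genes of lowest coefficient of variation), using the quasi-likelihood test with Benjamini-Hochberg adjustment at 0.05 over all 18996 genes. Standard errors were derived from the F statistic. The study's methods name DESeq2, run here (1.42.0) as an alternative. Other alternatives were no or 2 factors, other RUVs sets, RLE size factors, other filters, own controls, a replicate block and leaving out each library. P-values measure the spread between pools, which in the pooled controls includes differences between the experiments. The main fit treated all samples as independent, although knockdown and control tissue came from opposite sides of the same embryos.

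Members and lists were chosen with earlier results of these data known. Members named with values were the 3 of largest rise and fall in each knockdown, the 3 of highest and of lowest mean CPM, those called in a comparison, and MRPS27. MRPL10, MRPL12, MRPL39, MRPL43, MRPS16, MRPS30 and MRPS35, the genes called only under an alternative, and the list genes that did not pass were added after their values were seen.

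No same-group libraries agreed within counting noise (chi-square per degree of freedom 19.4 to 178.9 over 43 pairs). Sequences and promoter motifs were not analysed here.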

Additional observations from a re-analysis of the deposited data

Results flagged for a closer look

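Sets of values (a named gene's CPM or a summed level) were examined in the controls (8 samples), Nanog MO (4) and Klf4 MO (4). In 6 of 66 such sets 1 sample stood apart from the others by Dixon's criterion, which chance meets in about 1 in 20 sets. In Nanog MO 2, MRPS27 had 52.0 CPM (35.9 to 38.4 in the other 3 Nanog MO samples), MRPL50 had 32.7 CPM (19.6 to 21.5) and MRPS6 had 43.1 CPM (52.9 to 54.2). In Klf4 MO 3, MRPL51 had 64.2 CPM (71.4 to 72.0 in the other Klf4 MO samples). In Klf4 MO 4, MRPS22 had 33.4 CPM (36.8 to 37.4), and in Klf4 MO 2, MRPL9 had 110.0 CPM (91.8 to 94.0). The PouV MO group, with 3 samples, could not be examined in this way.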

How the results depend on the processing

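Counts of members passing the adjusted threshold were 0 in every fit of Nanog MO against the controls, where 0.132% to 1.43% of all genes passed. Elsewhere they differed from 0 as follows. DESeq2 called 1 member in PouV MO against the controls (MRPL1) and 1 in PouV MO against Nanog MO (MRPS2). Without the RUVs factor 1 was called in Klf4 MO (MRPS22), and with RUVs replicate sets of all 4 groups 1 in Klf4 MO against Nanog MO (MRPL51; 0.8% of all genes). Leaving out each library in turn gave 0 to 5 in PouV MO (5 without PouV MO 4), 0 to 1 in Klf4 MO (1 without Klf4 control 3), 0 to 2 in PouV MO against Nanog MO and 0 to 1 in PouV MO against Klf4 MO, the last counts both without PouV MO 4 (0.826% and 0.532% of all genes). The causes were not tested. Over the fits leaving out 1 library the PouV median lay between 0.067 and 0.36 for MRPL and 0.067 and 0.30 for MRPS, the low ends without PouV MO 3. Against the controls of the same experiment, without the RUVs factor, the PouV medians were 0.084 and 0.052. The Klf4 medians were -0.083 (MRPL) and -0.051 (MRPS) without the RUVs factor. No source ties replicate numbers to shared embryos. Deviations from the group means of same-numbered control and knockdown samples correlated between -0.0778 and 0.708 (median 0.553, 8 pairs, 13781 genes, 7 pairs over 0.1). Of the paired samples, 6 of 8 in the Nanog experiment correlated best with their own number, as did 4 of 4 in PouV and 4 of 4 in Klf4. Each was compared only with the paired samples of the other side of its experiment. In PouV and in Klf4 these were 2, so the counts there decide little. With the replicate number as a replicate block and the RUVs factor kept, members above 0 numbered 61 in Nanog, 61 in PouV (23 without PouV MO 3), 12 in Klf4, 52 in PouV MO against Nanog MO, 64 in PouV MO against Klf4 MO and 5 in Klf4 MO against Nanog MO. PouV MO 4, Klf4 MO 2 and Klf4 MO 4 had no control of the same number, so they add nothing to the block estimates. Those estimates rest on 4 pairs in Nanog, 2 in PouV and 2 in Klf4, and they are adjusted for the RUVs factor. The median differences of the single pairs given above are not adjusted for it. The PouV value without PouV MO 3 rests on PouV pair 1 alone. The block gave medians of 0.12 (MRPL) and 0.14 (MRPS) in Nanog and -0.12 and -0.070 in Klf4. Single genes changed sign with the replicate block (MRPS12 in Nanog 0.033; MRPL4 in PouV 0.022; in Klf4 MRPL17 -0.23, MRPS27 -0.058 and MRPS36 -0.051) and, for MRPS36 in Klf4, without the RUVs factor (-0.051) and over the fits leaving out 1 library (-0.10 to 0.48, the low end without Klf4 control 3). The block changed no call of a member. All 68 genes had over 100 counts in every sample, and the part of depth in their values was not tested.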
